A study of Mus musculus with 6 samples.

Results

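H3K4me1 peaks whose highest point, the summit, lay 1 to 100 bp upstream of a protein-coding gene start were described in macrophages treated with LPS or PBS. A summit was assigned to the nearest protein-coding start of chromosomes 1 to 19, and the side was read from the strand of the gene. The rule took 930 of the 73049 peaks in the LPS H3K4me1 list and 626 of the 64758 peaks in the PBS H3K4me1 list, of which 71661 and 63640 were on these chromosomes. Every one of these summits belonged to a different gene within its list, and 161 genes had one in both lists, so that 1395 of 20807 protein-coding genes were represented. These summits and their genes are called members below.

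The cells were bone marrow-derived macrophages (BMDMs), which are grown from the marrow of C57BL/6 mice in culture, here for 6 d with L929-conditioned medium. According to the methods, male mice aged 7 to 10 weeks were used. Chromatin was profiled by CUT&RUN, in which an antibody directs a nuclease to a histone mark and the released DNA is sequenced, with antibodies against H3K4me1, H3K27ac and a control IgG after 1 h with LPS, a bacterial cell wall component sensed by macrophages, or with PBS. There was 1 library per treatment and antibody, without any replicate, so the treatments could not be tested against each other and p-values are left out. The number of mice behind a library is not given in the sources used here. Intervals are 95% Wilson intervals of a share and cover counting error only.

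H3K4me1 is histone H3 with a single methyl group on lysine 4, a mark placed mainly by the KMT2C and KMT2D methyltransferases and best known from enhancers. At active promoters the nucleosomes beside the start usually carry the trimethylated form, and the monomethylated form flanks them, whereas the DNA just upstream of the start is often free of nucleosomes and bound by transcription factors. Promoters differ in sequence. Those of housekeeping genes mostly lie in CpG islands with GC boxes, the sites of SP factors, and NF-Y boxes, whereas many cell type-restricted genes have promoters poor in CpG.

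The 6 sequences that follow show what kinds of promoter were involved. They are the promoters of the member with the highest −log10 q in each CpG class of each list, where the class is explained below, and of the strongest member of both lists that also had an LPS H3K27ac peak. Hpf1 was the strongest high-CpG member in both lists. Each run holds 150 bases before the start and 50 bases from it, 5′ to 3′ on the strand of the gene, from RefSeq's copy of GRCm38.p6. Capitals mark exact matches to the NF-Y box (CCAAT, or ATTGG on the other strand), the GC box (GGGCGG or CCGCCC) or the ETS word (CCGGAAG or CTTCCGG).
Hpf1, chr8:60890268-60890467, + strand: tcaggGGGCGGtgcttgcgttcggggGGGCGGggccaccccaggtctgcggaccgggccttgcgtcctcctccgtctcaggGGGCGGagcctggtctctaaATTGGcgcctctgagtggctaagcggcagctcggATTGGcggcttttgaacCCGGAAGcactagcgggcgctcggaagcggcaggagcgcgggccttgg
4932438A13Rik, chr3:36862954-36863153, + strand: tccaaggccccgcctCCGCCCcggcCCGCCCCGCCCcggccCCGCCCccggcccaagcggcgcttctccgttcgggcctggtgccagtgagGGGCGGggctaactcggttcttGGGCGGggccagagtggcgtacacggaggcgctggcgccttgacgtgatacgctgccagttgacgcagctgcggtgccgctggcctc
Sh3bp2, chr5:34525688-34525887, + strand: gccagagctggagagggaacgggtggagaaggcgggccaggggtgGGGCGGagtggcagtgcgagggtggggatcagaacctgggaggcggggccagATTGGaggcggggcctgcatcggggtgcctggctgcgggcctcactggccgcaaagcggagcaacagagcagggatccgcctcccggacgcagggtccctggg
Bank1, chr3:136326017-136326216, - strand: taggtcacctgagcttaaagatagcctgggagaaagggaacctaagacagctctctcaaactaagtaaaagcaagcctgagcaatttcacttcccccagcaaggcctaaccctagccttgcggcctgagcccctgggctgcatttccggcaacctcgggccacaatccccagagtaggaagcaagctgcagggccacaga
Olfr552, chr7:102597620-102597819, + strand: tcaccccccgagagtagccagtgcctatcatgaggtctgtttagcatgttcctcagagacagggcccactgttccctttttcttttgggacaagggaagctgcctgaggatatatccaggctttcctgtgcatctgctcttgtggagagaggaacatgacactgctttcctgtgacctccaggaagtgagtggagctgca
Clec4a3, chr6:122952365-122952564, + strand: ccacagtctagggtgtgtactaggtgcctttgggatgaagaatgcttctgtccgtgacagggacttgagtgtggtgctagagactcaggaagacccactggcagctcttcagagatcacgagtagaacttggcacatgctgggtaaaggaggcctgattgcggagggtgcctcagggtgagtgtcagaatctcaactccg

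The high-CpG promoter of Hpf1, which encodes the cofactor that directs ADP-ribosylation by PARP1 to serine, held 2 NF-Y boxes that began 49 and 15 bp upstream, 3 GC boxes and an ETS word. The summits of this gene lay 72 bp upstream in the LPS list and 66 bp upstream in the PBS list. The promoter of 4932438A13Rik held 6 GC boxes between 135 and 37 bp upstream and no NF-Y box. That of Sh3bp2, an adaptor protein of immune receptor signalling, held 1 NF-Y box that began 53 bp upstream, 22 bp from its PBS summit at 75 bp, and 1 GC box. The low-CpG promoters of Bank1, Olfr552 and Clec4a3 held none of these 3 words within the 200 bases shown. A match is a string of letters and not evidence that a factor was bound.

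Member summits sat at the maximum of H3K4me1 summit density around gene starts. In bins of 20 bp the density was highest 41 to 60 bp upstream in both lists, with 210 LPS and 157 PBS summits in that bin. By contrast, summits of the LPS H3K27ac list were most frequent 100 to 119 bp downstream, with 40 in that bin and 3 in the bin 41 to 60 bp upstream. A further 544 LPS and 324 PBS summits lay 0 to 99 bp downstream of a start, and 3717 and 2375 lay more than 100 and up to 1000 bp away on either side (called farther promoter summits below). Since the position of the summit chose the members, these counts are a description.

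**Figure D1:**
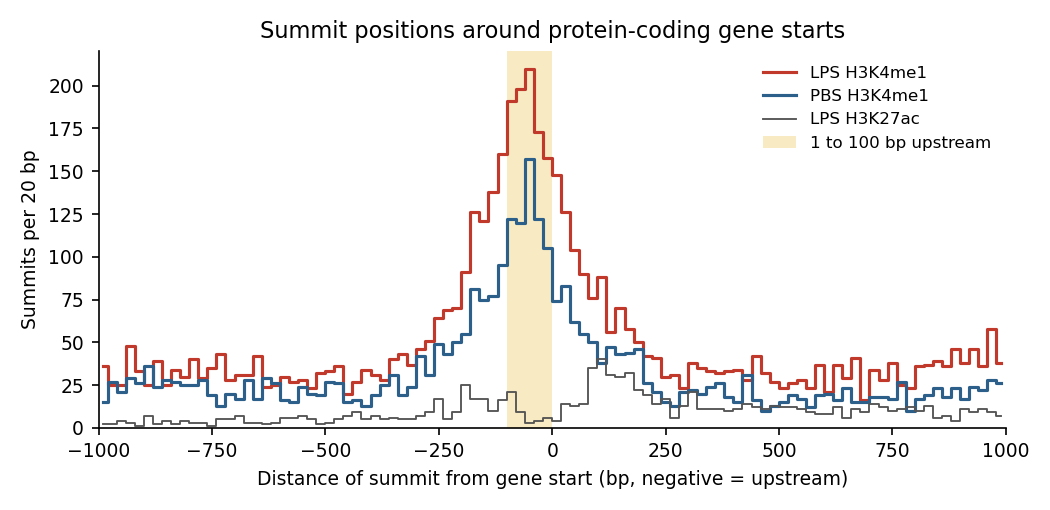
Number of peak summits (vertical axis) in each 20 bp bin of distance from the nearest protein-coding gene start (horizontal axis, bp, negative values upstream) for the LPS and PBS H3K4me1 lists and the LPS H3K27ac list. The shaded band is the window of 1 to 100 bp upstream. Both H3K4me1 lines peak inside it, at 210 and 157 summits, while the H3K27ac line peaks downstream of the start at 40.

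Within the window the summits were spread widely. The median distance was 53 bp (quartiles 29 and 76) in the LPS list and 51 bp (quartiles 29 and 76) in the PBS list. The 10 bp next to the start held the fewest, 63 LPS and 49 PBS summits. At the limits, 8 LPS summits lay exactly 100 bp upstream (the strongest at Papss1, −log10 q of 17.2) and 8 lay just outside, 1 bp farther away (the strongest at Alg10b, 11.8). At the near limit 10 LPS summits lay 1 bp upstream (Rnf2, 9.27) and 8 on the start base itself (Samhd1, 7.75). In the PBS list 6 summits lay at 100 bp (Tmem123, 7.67) and 4 at 1 bp farther (Gtf2h4, 8.67), and 4 lay at 1 bp (Polr3k, 14.8) and 6 on the start base. Tmem123 shows how sharp the limit was: its PBS summit at 100 bp fell inside the window, and its LPS summit, 1 bp farther away, fell outside.

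The member genes were mostly genes with CpG-rich promoters. A promoter was called high-CpG when the 500 bp centred on the start had an observed-to-expected CpG ratio of at least 0.75 and a GC content of at least 55%, low-CpG when the ratio was below 0.48, and intermediate otherwise. Of the LPS members 545 of 930 (58.6%, interval 55.4 to 61.7) were high-CpG and 134 (14.4%, 12.3 to 16.8) low-CpG. Of the PBS members 333 of 626 (53.2%, 49.3 to 57.1) were high-CpG and 110 (17.6%, 14.8 to 20.7) low-CpG. Over all protein-coding genes 33.7% were high-CpG, 23.5% intermediate and 42.8% low-CpG. The median GC content of the 500 bp was 63.8% for LPS members and 63% for PBS members, beside 57.4% over all genes.

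Part of that difference was shared with any gene that had an H3K4me1 summit near its start. Among genes whose LPS summit lay 0 to 99 bp downstream, 49.3% (45.1 to 53.5) were high-CpG, and among those with a farther promoter summit, 47.8% (46 to 49.6) were. Genes with no LPS summit within 1000 bp were high-CpG in 29.3%. In the PBS list the same shares were 41.7% (36.4 to 47.1), 41.9% (39.7 to 44.1) and 32%. In both lists, then, the interval of the member share lay above the intervals of both other promoter positions. No test is given, because genes are not replicates of a treatment.

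**Figure D2:**
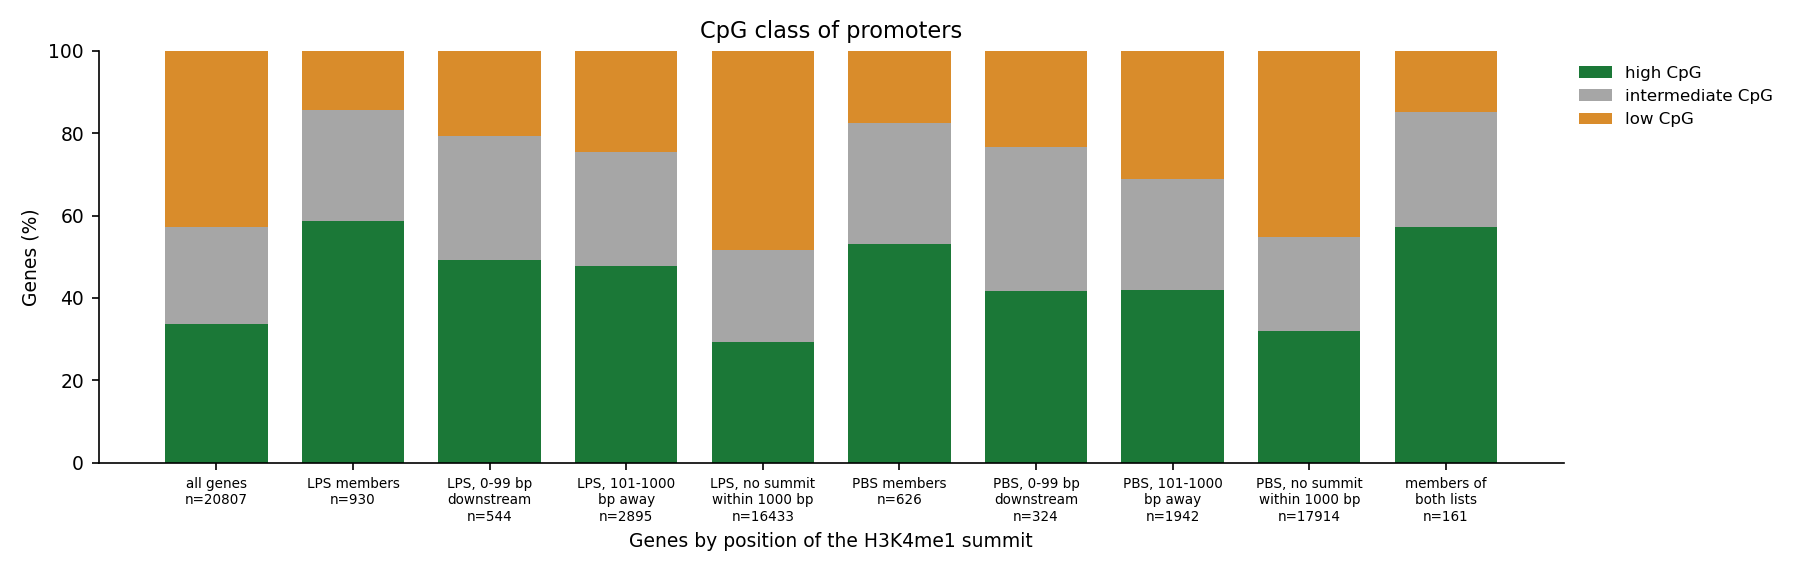
Share of genes (vertical axis, percent) with a high-, intermediate- or low-CpG promoter, for all protein-coding genes and for genes grouped by where their H3K4me1 summit lay in each list (horizontal axis, with the number of genes). The high-CpG part is tallest for LPS members (58.6%), members of both lists (57.1%) and PBS members (53.2%), and covers 33.7% of all genes.

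Other features of the promoters were as follows. A protein-coding neighbour that started within 1000 bp on the opposite strand and ran away from the gene was found for 81 LPS members (8.71%, 7.06 to 10.7) and 51 PBS members (8.15%, 6.25 to 10.6), beside 6.97% over all genes and 4.15% and 3.55% of genes with a farther promoter summit. Genes with a downstream summit had such a neighbour in 10.7% (8.34 to 13.5) and 7.72% (5.28 to 11.1). Summits went to the nearest start, so those farther upstream of a gene could be counted for such a neighbour instead. The share among genes with a farther promoter summit can therefore be lowered by the rule itself. In 31 LPS and 27 PBS cases the same summit lay within the window of 2 starts, as for Ndufaf2 and Ercc8, Zfp277 and Dock4, or Rpa3 and Umad1, and it was then counted for the nearer. The summit lay inside another annotated gene for 160 LPS members (17.2%) and 102 PBS members (16.3%), beside 20.7% for a point 50 bp upstream of every start. The 100 bp upstream of the start were at least 50% repeat-masked for 2 LPS and 3 PBS members, 0.215% and 0.479%, beside 4.86% of all genes. The peak itself reached across the start for 761 LPS members (81.8%) and 516 PBS members (82.4%).

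The promoter words were counted in the 250 bp before to 50 bp after each start. The NF-Y box, the site of the trimeric factor NF-Y, was held by 447 LPS members (48.1%, 44.9 to 51.3) and 297 PBS members (47.4%, 43.6 to 51.4), beside 38.6% of all promoters. The difference was also there within a CpG class. Of high-CpG promoters 50.5% (46.3 to 54.6) of LPS members and 48% (42.7 to 53.4) of PBS members held one, beside 36.4% of all high-CpG promoters. Genes with the summit elsewhere at the promoter were nearer to that level, with 36.6% (31 to 42.5) of high-CpG genes with an LPS summit 0 to 99 bp downstream and 39.1% (36.6 to 41.7) of those with a farther promoter summit. In low-CpG promoters the order was the other way, with 33.6% of both LPS members (26.1 to 41.9) and PBS members (25.5 to 42.9), beside 39.2%, which lay inside both intervals.

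The NF-Y box was also counted in the 100 bp next to the start alone. In the 100 bp before the start 309 LPS members (33.2%, 30.3 to 36.3) and 187 PBS members (29.9%, 26.4 to 33.6) held a box, beside 21.2% of all genes. Genes with a downstream summit held one there in 19.7% (LPS) and 18.5% (PBS), and genes with a farther promoter summit in 22.1% and 21.4%. Of the 161 genes that were members in both lists, 67 (41.6%, 34.3 to 49.3) held a box in these 100 bp, compared with 31.5% (28.3 to 34.8) of genes that were members only in the LPS list and 25.8% (22 to 30) only in the PBS list. At least 2 boxes were found in 21.3% of LPS members, 20% of PBS members and 26.7% of members of both lists, beside 12.6% of all promoters. The higher share was not limited to the window. In high-CpG promoters a box began 51 to 70 bp upstream in 11.4% of LPS members, beside 7.47% of all, and 111 to 130 bp upstream in 6.97%, beside 4.26%. Apart from the single promoters described above, distances between boxes and summits were not measured.

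The GC box was the most frequent word. It was held by 661 LPS members (71.1%, 68.1 to 73.9) and 413 PBS members (66%, 62.2 to 69.6), beside 43.7% of all promoters, although within high-CpG promoters the shares were closer, 84% and 80.5% beside 77.2%. In low-CpG promoters 30.6% (23.4 to 38.8) of LPS members and 19.1% (12.8 to 27.4) of PBS members held a GC box, beside 11.8% of all low-CpG promoters and 21.4% and 21% of those with a farther promoter summit. The ETS word was held by 17.8% of LPS and 18.2% of PBS members, beside 11% of all promoters, and within high-CpG promoters by 21.3% and 21.9%, beside 20%. The ETS difference over all genes was thus small within that class.

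The PU.1 word GAGGAAGT is a core of the site bound by the myeloid ETS factor PU.1. It was held by 14 of 134 low-CpG LPS members (10.4%, 6.33 to 16.8) and 15 of 110 low-CpG PBS members (13.6%, 8.44 to 21.3), beside 4.55% of all low-CpG promoters. This was shared with other low-CpG genes that had a summit near the start: 13.4% (8.29 to 20.9, LPS) and 17.1% (10.3 to 27.1, PBS) of those with a downstream summit held it, and 8.03% and 9.24% of those with a farther promoter summit. Over all CpG classes it was held by 3.98% and 4.79% of members, beside 3.26%. In low-CpG promoters the AP-1 word TGANTCA was held by 14.9% (9.87 to 21.9) of LPS and 15.5% (9.88 to 23.4) of PBS members. The share of all low-CpG promoters, 10.8%, lay inside both intervals. Over all CpG classes the AP-1 word was held by 5.59% of LPS and 7.03% of PBS members, beside 6.88% of all promoters. A TATA box (TATAAA, 40 to 20 bp upstream, gene strand) was rare, with 6 LPS and 2 PBS members (0.645% and 0.319%) beside 2.48% of all promoters, and with 2 and 1 low-CpG members beside 4.61% of low-CpG promoters. Among the other words, the E-box CACGTG was held by 10.1% (8.33 to 12.2) of LPS and 8.79% (6.81 to 11.3) of PBS members, beside 7.82%. The interferon response word was held by 2.26% (1.48 to 3.43) and 2.24% (1.34 to 3.72), beside 3.52%. The interval of the LPS share lay above all promoters for the first and below for the second. Within high-, intermediate- and low-CpG promoters the E-box was held by 12.8%, 5.98% and 6.72% of LPS members, beside 11.9%, 9.57% and 3.64% of all. The interferon response word was held by 1.83%, 1.59% and 5.22%, beside 2.27%, 3.5% and 4.51%. Within each class the share of all promoters lay inside the interval of the LPS members for both words. Of the remaining words, the cAMP response element TGACGTCA was held by 3.23% (2.27 to 4.57) and 3.67% (2.46 to 5.45) beside 2.43%, the NF-kB word by 2.04% and 1.28% beside 1.77%, and the words for NRF1 and YY1 by 1.94% and 0.958% beside 1.25% and by 0.753% and 0.639% beside 0.779%. All words but the TATA box were counted on both strands. Matches to the GC box could overlap each other, as in 4932438A13Rik, and no word contains another.

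**Figure D3:**
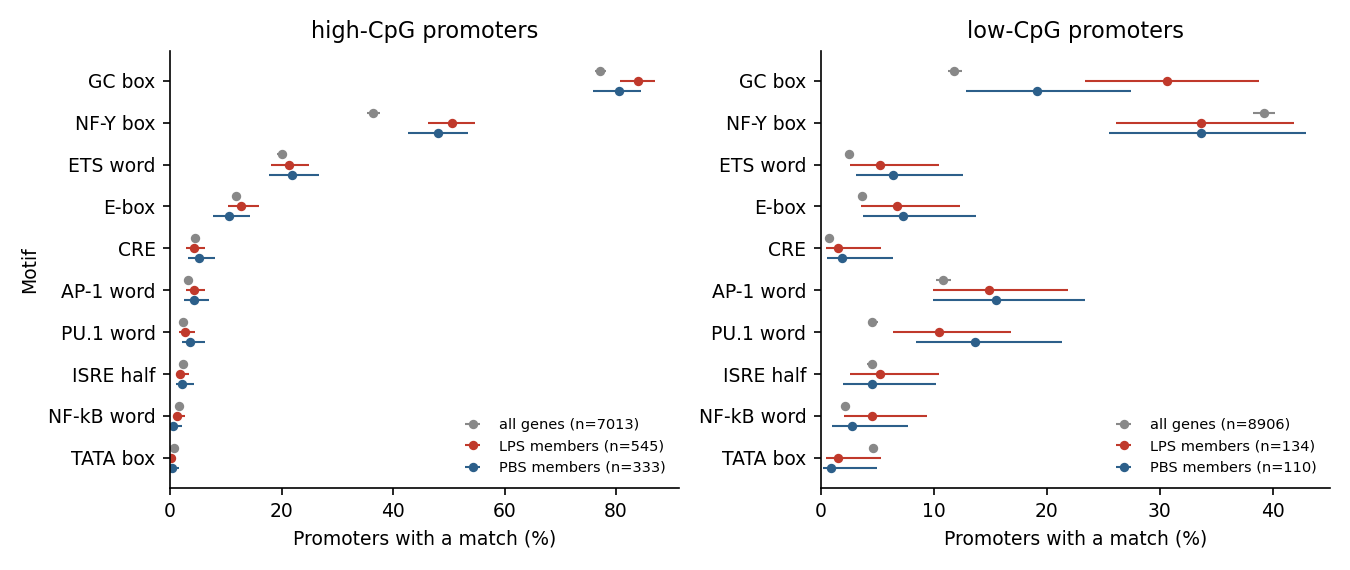
Share of promoters (horizontal axis, percent) with at least 1 exact match to each named word (vertical axis) in high-CpG promoters (left) and low-CpG promoters (right), for all genes, LPS members and PBS members. Points are shares and bars are 95% Wilson intervals. The NF-Y box lies above all genes on the left (50.5% and 48% beside 36.4%), and the PU.1 word on the right (10.4% and 13.6% beside 4.55%), where low-CpG genes with a downstream summit, not plotted, reached 13.4% and 17.1%.

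The peaks of members, like other promoter peaks, were narrower at the median than distal ones. The width was 276 bp at the median for LPS members (quartiles 200 and 396) and 239 bp for PBS members (182 and 331), whereas peaks beyond 1000 bp of any start were 364 and 344 bp wide at the median. Peaks with a downstream summit were 285 and 244 bp wide, and those with a farther promoter summit 280 and 266 bp. Of the LPS members 133 (14.3%) were at least 500 bp wide, beside 34.8% of all LPS H3K4me1 peaks of chromosomes 1 to 19, and of the PBS members 57 (9.11%), beside 31.9%. Width went with the class of the promoter. Among low-CpG members 30.6% (23.4 to 38.8) of LPS and 27.3% (19.8 to 36.3) of PBS peaks were at least 500 bp wide, and among high-CpG members 11.4% (8.98 to 14.3) and 5.11% (3.21 to 8.02) were. The same split was seen over every peak with its summit within 1000 bp of a start, with 30.1% and 28.2% at low-CpG starts and 14.6% and 8.72% at high-CpG starts. The widest member was Ltc4s, the leukotriene C4 synthase gene, a low-CpG member of both lists, with an LPS peak of 1957 bp.

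Peak height was moderate. The fold enrichment divides the fragment coverage of a summit by the background around it, and −log10 q is the significance given by the peak caller. Because both move with the depth and background of the library, they were compared only within a list. LPS members had a median fold enrichment of 6 and a median −log10 q of 5.51, beside 5.53 and 4.67 for summits 0 to 99 bp downstream, 5.47 and 4.62 for farther promoter summits and 6.1 and 5.66 for those farther off. For PBS members the medians were 5.73 and 5.13, beside 5.56 and 4.71, 5.56 and 4.51, and 6.13 and 5.56. Members were thus the strongest of the promoter summits at the median in both lists, and close to distal peaks. The number of fragments over a summit, recovered from the deposited values, was 18 at the median in both lists, with quartiles of 14 and 23 for LPS members and 14 and 21 for PBS members. A member therefore rested on few fragments, and in a single library its summit can shift by counting error.

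**Figure D4:**
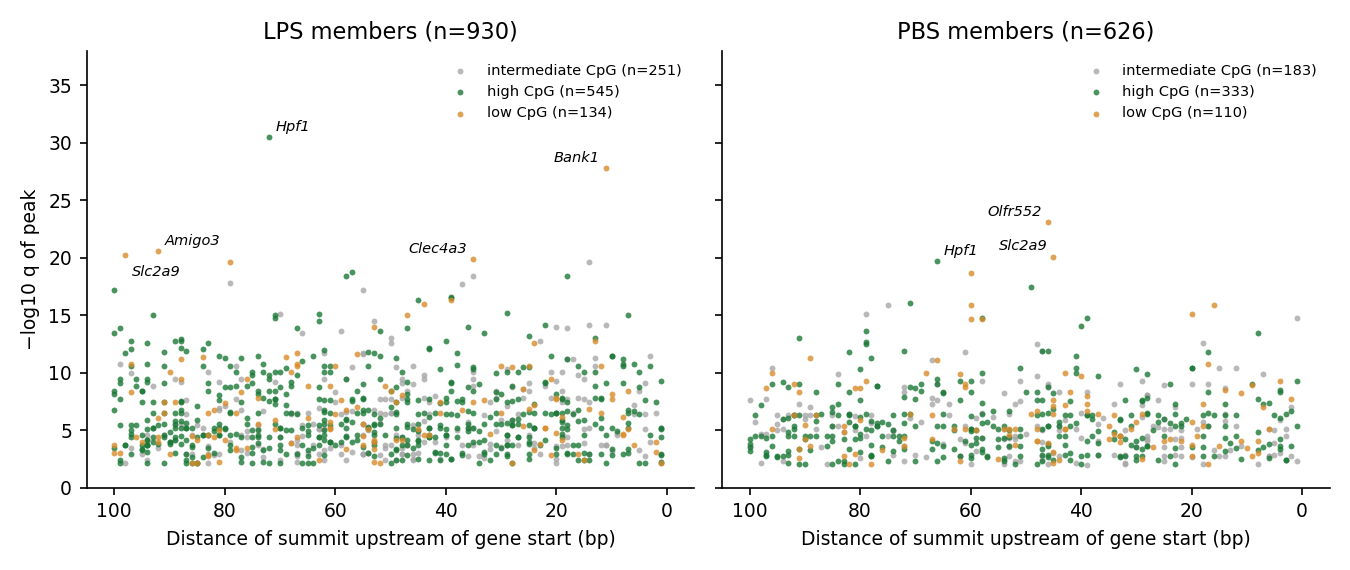
Each point is a member peak, placed by the distance of its summit upstream of the gene start (horizontal axis, bp) and its −log10 q (vertical axis), coloured by the CpG class of the promoter, for the LPS list (left, 930 members) and the PBS list (right, 626 members). The strongest members are named. Most points lie below 10, and Hpf1 (30.5) and Bank1 (27.8) stand above the others in the LPS list.

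Both CpG-rich and CpG-poor promoters were found among the strongest members. The 10 LPS members with the highest −log10 q were Hpf1, Bank1, Amigo3, Slc2a9, Clec4a3, 4932438A13Rik, Ncf4, Mpzl1, Pdhx and Zfp277, of which Bank1, Amigo3, Slc2a9, Clec4a3 and Ncf4 have low-CpG promoters. Among the strongest 20% of members, however, 15.6% (11.1 to 21.5) were low-CpG in the LPS list, beside 12.4% (8.38 to 17.9) in the weakest 20%. In the PBS list these shares were 24.6% (17.9 to 32.8) and 12.8% (8.03 to 19.8).

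The strongest members of all were described gene by gene, with the H3K4me1 values of the libraries side by side and without comparing the values between them. At Hpf1 (start at base 60890418 of chromosome 8) the LPS peak reached 18.2-fold enrichment and a −log10 q of 30.5 on 46 fragments, and the PBS peak 13.3-fold and 19.7 on 36. Neither H3K27ac list had a peak within 10 kb of that start. These lists were sparse: of 20807 genes, 1070 had an LPS and 16 a PBS H3K27ac peak within 1000 bp. A missing H3K27ac peak therefore does not show that the mark was absent. Bank1 (start at base 136326066 of chromosome 3), a scaffold protein of B cell receptor signalling, had an LPS summit 11 bp upstream (16.9-fold, −log10 q of 27.8) and a PBS summit 17 bp upstream (7.26-fold, 10.8). Its peaks were 1351 and 1406 bp wide, and no H3K27ac peak lay within 10 kb. Slc2a9, a urate transporter gene, had its LPS summit 98 bp upstream (13.3-fold, 20.2) and its PBS summit 45 bp upstream (14-fold, 20.1). Both peaks were broad, 935 and 1522 bp.

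Other strong LPS members differed in what the PBS list held. At Amigo3, which encodes a cell adhesion protein, the LPS and PBS summits lay 92 and 91 bp upstream, with −log10 q of 20.6 and 8.33. At Clec4a3, a C-type lectin receptor of myeloid cells, they lay 35 and 97 bp upstream, with 19.9 and 8.67, and an LPS H3K27ac summit lay 534 bp downstream with a −log10 q of 2.41. Ncf4, which encodes a subunit of the phagocyte NADPH oxidase, had an LPS summit 79 bp upstream in a peak of 1136 bp (−log10 q of 19.6), while the PBS peak had its summit 232 bp upstream and ended 3 bp before the start (5.02). Pdhx, a component of the pyruvate dehydrogenase complex, had its LPS summit 58 bp upstream (18.4) and an LPS H3K27ac summit 219 bp downstream (2.22). The PBS summit lay 83 bp upstream of Pdhx (12.7) but nearer to the start of its divergent neighbour Apip, at 79 bp, and was counted for Apip, so Pdhx was a member in the LPS list only. At Zfp277, a zinc finger gene, the LPS and PBS summits lay at 18 bp (18.4) and 23 bp (3.45), and at Mpzl1, a membrane glycoprotein gene, at 57 bp (18.8) and 78 bp (5.02).

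The strongest PBS members were Olfr552, Slc2a9, Hpf1, Fchsd2, Cops4, Tgfbr1, Siglece, Sh3bp2, Nfe2 and Tnip2. Olfr552, an olfactory receptor gene on chromosome 7 and the only olfactory receptor among 1128 with a member in either list, had a PBS summit 46 bp upstream (15.6-fold, −log10 q of 23.1). The LPS list held a peak across the same start (16.3-fold, 24.6), but with its summit 185 bp upstream, so that it fell outside the window. The peaks were 1130 and 945 bp wide, and the GC content of 54.8% with an observed-to-expected CpG ratio of 0.0278 put this promoter among the low-CpG ones. Siglece, an inhibitory sialic acid receptor of myeloid cells, was a like case, with a PBS summit 60 bp upstream (−log10 q of 15.9) and an LPS summit 83 bp downstream (25). For these genes membership in a single list reflected the place of the summit in a broad peak and not the presence of a peak.

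Other strong PBS members also had an LPS peak within 1000 bp of the start. They were chosen by their PBS −log10 q, so the values of the lists are given side by side and not compared. Tgfbr1, the type I receptor of TGF-β, had a PBS summit 71 bp upstream with a −log10 q of 16.1. Its LPS summit lay 86 bp upstream, with 2.7 on 28 fragments. Cops4, a subunit of the COP9 signalosome, had a PBS summit 49 bp upstream (17.5, 35 fragments) and an LPS summit 27 bp downstream (4.59, 30 fragments). Fchsd2, an endocytosis protein, had them at 60 bp (18.7) and 132 bp upstream (7.47), and Nfe2, a transcription factor of blood cells, at 16 bp (15.9) and 71 bp upstream (5.15). Tnip2, which binds the NF-kB inhibitor A20, had them at 79 bp (15.1) and 83 bp upstream (2.15).

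Membership in both lists was the exception. The 161 shared genes were 17.3% (15 to 19.9) of the LPS members and 25.7% (22.5 to 29.3) of the PBS members, where 4.47% of all genes had an LPS member and 3.01% a PBS member. Their summits were 22 bp apart at the median (quartiles 11 and 40) and at most 80 bp apart. They lay within 10 bp at 38 genes (23.6%) and within 20 bp at 78 genes (48.4%). Both summits of a shared gene had to lie 1 to 100 bp upstream of the same start. The rule itself therefore kept them close, and these distances are not a measure of agreement between the lists. By the lower of the 2 −log10 q values the first 5 were Slc2a9, Hpf1, Polr3k, Pcdh17 and Bank1. Polr3k, a subunit of RNA polymerase III, had summits 37 bp (17.7) and 1 bp upstream (14.8), and Pcdh17, a protocadherin gene, 66 bp (11) and 91 bp upstream (13). Of the shared genes 92 (57.1%, 49.4 to 64.5) were high-CpG and 24 (14.9%, 10.2 to 21.2) low-CpG. The latter included genes of myeloid cells such as the Fc receptor gene Fcgr4 and Clec4a3, examples chosen after their values were seen, as well as genes of other kinds such as the kinase gene Csnk1e, the respiratory chain gene Cox7a1 and the predicted genes Gm16253 and Gm20449.

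Most members belonged to a single list, and what the other list held at their starts varied. Of the LPS members 504 (54.2%, 51 to 57.4) had no PBS H3K4me1 peak within 1000 bp of the start, 109 (11.7%) had a PBS peak across the start with its summit outside the window, and 156 (16.8%) had a PBS peak within 1000 bp only. Among all genes with an LPS summit within 1000 bp of the start, 53.3% had no PBS peak within 1000 bp, and 53% without the members, so the member share was near the background. Of the PBS members 203 (32.4%, 28.9 to 36.2) had no LPS peak within 1000 bp, beside 30.2% and 29.6%, 140 (22.4%) had an LPS peak across the start and 122 (19.5%) one within 1000 bp only. Counted by peaks, 341 LPS members (36.7%, 33.6 to 39.8) were overlapped by a PBS peak by at least 1 bp, beside 61.5% of all LPS peaks but 36.1% of LPS peaks with a summit within 1000 bp of a start and 63.5% of those farther off. For PBS members the figures were 355 (56.7%, 52.8 to 60.5), 73.4%, 57.5% and 74.3%. Members therefore resembled other promoter peaks in this measure.

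Among members, the class of promoter went with what the other list held. No PBS peak lay within 1000 bp for 58.9% (54.7 to 63) of high-CpG LPS members and 31.3% (24.1 to 39.6) of low-CpG ones. No LPS peak lay there for 34.5% (29.6 to 39.8) of high-CpG PBS members and 20.9% (14.4 to 29.4) of low-CpG ones. A peak of the other list that covered the start with its summit outside the window was found for 28.4% (21.4 to 36.5) of low-CpG and 8.99% (6.87 to 11.7) of high-CpG LPS members, and for 32.7% (24.7 to 41.9) and 18.6% (14.8 to 23.1) of PBS members. These shares are not given for other genes with a summit within 1000 bp of the start. The split is therefore not read as a trait of members. The low-CpG peaks were also the wider ones, as given above, and the part of width in this split was not tested. Strength went with it as well. In the strongest 20% of LPS members 36.6% (30 to 43.7) had no PBS peak within 1000 bp and in the weakest 20% it was 67.2% (60.2 to 73.5), and in the PBS list 25.4% (18.6 to 33.6) and 44% (35.6 to 52.8).

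**Figure D5:**
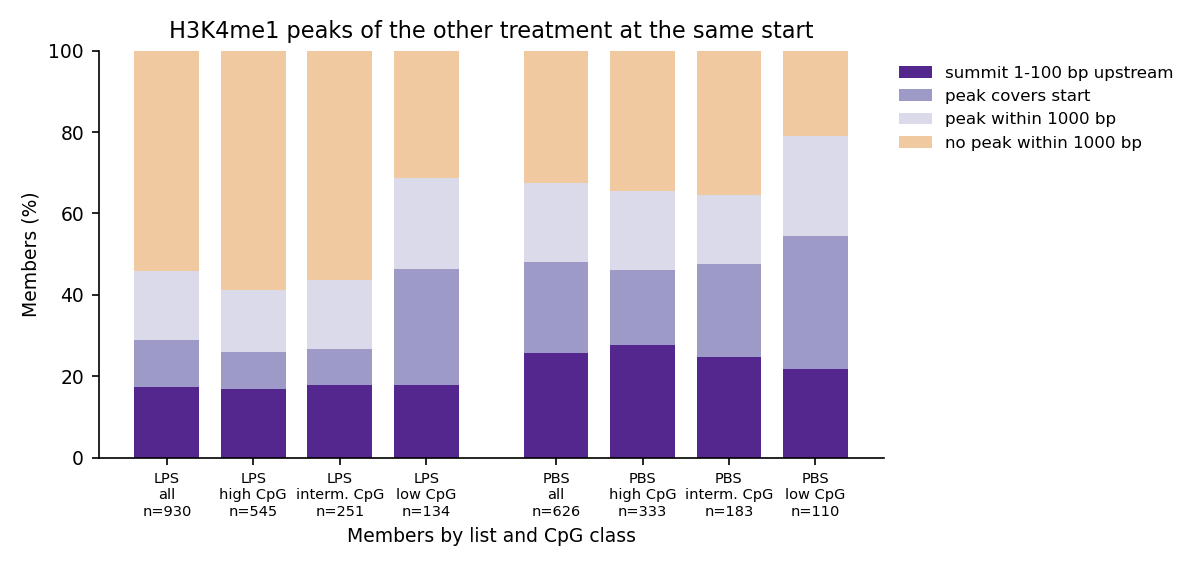
Share of members (vertical axis, percent) by what the H3K4me1 list of the other treatment held at the same start, for LPS and PBS members in all and by CpG class (horizontal axis, with the number of members). The part with no peak within 1000 bp is smaller for low-CpG members (31.3% and 20.9%) than for high-CpG members (58.9% and 34.5%) in both lists. The same shares by class for other genes with a summit near the start are not plotted.

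Some strong members had no peak of the other list near the start. In the LPS list these were led by Eml6, a microtubule-associated protein (−log10 q of 18.4, 33 fragments), Efcab14 (17.2, 35), Fkbp15 (16.6, 28), Sike1, a negative regulator of the kinase IKKε (16.5, 28), and P3h1, a collagen prolyl hydroxylase (15.1, 31). The nearest PBS peak was 38975 bp away from the start of Eml6 and 42634 bp from that of P3h1, and 1190 to 3235 bp away at the other three. In the PBS list they were led by Sh3bp2 (−log10 q of 15.9, 38 fragments), Trem3, a receptor of myeloid cells (15.1, 28), the actin-severing gelsolin gene Gsn (12.5, 32), Acat1, a mitochondrial thiolase (11.9, 21), and Virma, a subunit of the m6A writer complex (11.9, 21). The nearest LPS peaks were 1083 to 4098 bp away. With 1 library per treatment, a difference between treatments and a difference between libraries cannot be told apart.

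H3K27ac was seldom called at promoters in these lists, members included. An LPS H3K27ac peak lay within 1000 bp of the start for 64 LPS members (6.88%, 5.43 to 8.69) and 43 PBS members (6.87%, 5.14 to 9.12), beside 5.14% of all genes, 8.88% and 8.24% of genes with a farther promoter summit, and 9.38% and 8.95% of genes with a downstream summit. The PBS H3K27ac list had a peak at 2 LPS members, Top1 and Sgo1, and at 1 PBS member, again Sgo1, beside 0.0769% of all genes. The LPS H3K27ac summits that lay within 1000 bp were mostly downstream. At LPS members 41 of 62 were downstream and 16 more than 100 bp upstream, with a median position 149 bp downstream. At PBS members 30 of 35 were downstream, with a median of 387 bp. The same shares over all genes are not given. Over all genes LPS H3K27ac summits were also most frequent downstream, as described above, so the side is not read as a trait of members. An H3K27ac summit shared the window with an LPS H3K4me1 summit at 5 genes, Acbd5, Fam174a, Lgals3bp, Nup85 and Rbm33, and with a PBS one at none, out of 43 LPS H3K27ac summits in that window over all genes.

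By function, members were spread thinly over housekeeping groups. The LPS list held 8 of 78 mitochondrial ribosomal protein genes (10.3%, 5.29 to 19), among them Mrpl18 and Mrps22, 10 of 104 respiratory chain and assembly genes (9.62%, 5.31 to 16.8), among them Ndufb4 and Ndufv2, 6 of 49 proteasome genes (12.2%, 5.73 to 24.2), among them Psma4 and Psmd11, and 7 of 87 cytosolic ribosomal protein genes (8.05%, 3.95 to 15.7), beside 4.47% of all genes. The PBS list held 2, 4, 1 and 3 of these groups, beside 3.01% of all genes. Genes for RNA polymerase subunits and Mediator had 5 of 57 members (8.77%, 3.81 to 18.9) in each list, with Med21 and Polr3k in both, and aminoacyl-tRNA synthetase genes had 3 of 38 in each, with Mars2 in both. Splicing factor genes had 2 of 45 in the LPS list and 0 in the PBS list. Zfp genes, most of which encode zinc finger transcription factors, had 18 of 388 (4.64%) and 12 (3.09%), near the share of all genes. In the LPS list the intervals of the mitochondrial ribosomal, respiratory chain and proteasome groups lay above the share over all genes, and in the PBS list that of RNA polymerase and Mediator did. In the order named, 45 of 78, 52 of 104, 22 of 49 and 35 of 57 of these genes were high-CpG. Of all 7013 high-CpG genes, 545 were LPS members and 333 PBS members. The part of promoter class in the group shares was not tested. The other intervals held the share over all genes. All of these groups were defined by gene symbol.

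Groups of tissue-restricted genes had few or no members and few H3K4me1 peaks within 1000 bp of the start. There was no member among 39 Hox, 329 vomeronasal receptor and 53 keratin genes, none among 39 marker genes of other tissues and 1 among 1128 olfactory receptors. These counts of 0 allow shares of up to 7.69% (Hox and other tissues), 0.912% (vomeronasal) and 5.66% (keratin), taken as 3 genes of each group. The shares over all genes, 4.47% and 3.01%, were below these limits for Hox, other-tissue and keratin genes and above that for vomeronasal receptors. An LPS H3K4me1 peak lay within 1000 bp of the start for 1 Hox gene, 0 keratin genes, 3 marker genes of other tissues, 1 vomeronasal and 5 olfactory receptor genes. Over all 20807 protein-coding genes, 4374 had an LPS summit that close, a narrower count than that of peaks. Replication-dependent histone genes, which are expressed in every dividing cell, had 0 of 64 in the LPS list and 1, Hist1h3c, in the PBS list, although 12 and 8 of them had an H3K4me1 peak within 1000 bp.

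Genes of the macrophage response made up a small part of the members. Their shares are read against 4.47% of all genes with an LPS member and 3.01% with a PBS member, and both were inside the intervals of the primary and of the late list. Of 58 primary LPS response genes, which are induced without new protein synthesis, 2 were LPS members (3.45%, 0.951 to 11.7) and 1 was a PBS member (1.72%, 0.305 to 9.14), and 16 and 19 had a peak within 1000 bp of the start. Cxcl1, a neutrophil-attracting chemokine, had an LPS summit 92 bp upstream on 10 fragments (−log10 q of 3.98), and the nearest PBS peak was 3132 bp from its start. Tnfaip2 had one 63 bp upstream (6.95), and the nearest PBS peak was 1235 bp away. Btg2, an antiproliferative gene, was the PBS member (78 bp upstream, 2.81), and the nearest LPS peak was 4556 bp away. Of 44 late or interferon-dependent genes 4 were LPS members (9.09%, 3.59 to 21.2) and 2 PBS members (4.55%, 1.26 to 15.1), and 28 and 20 had a peak within 1000 bp. Over all 20807 protein-coding genes, 4374 had an LPS summit and 2893 a PBS summit within 1000 bp, a narrower count than that of peaks.

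At several of these interferon-type genes both lists held a peak at the start, with the summit in different places. Ifnb1, the interferon β gene, was a PBS member (61 bp upstream, −log10 q of 9.06), and its LPS peak of 1061 bp had its summit 56 bp downstream (10.6). Gbp5 and Oas3, both interferon-induced, were LPS members (76 bp, 3.45, and 56 bp, 7.02), with PBS summits 245 bp (13.7) and 224 bp upstream (7.52). Ifit1 and Ifit2 were LPS members at 48 bp (4.19) and 67 bp (3.76), and the nearest PBS peaks were 6533 and 1045 bp away. Ifit1 also had an LPS H3K27ac summit 151 bp downstream (4.35).

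Macrophage identity genes gave 3 of 60 LPS members (5%, 1.71 to 13.7), Mitf, Ncf4 and Slc11a1, and 5 PBS members (8.33%, 3.61 to 18.1), Csf2rb2, Ctsz, Cx3cr1, Fcgr1 and Tlr4, beside 4.47% and 3.01% of all genes, while 39 and 32 of the 60 had a peak within 1000 bp. None of the 8 was a member in both lists. Tlr4, the receptor for LPS, had a PBS summit 45 bp upstream close to the significance limit of the list (−log10 q of 2.12, 21 fragments) and an LPS summit 141 bp upstream (3.7, 22 fragments). Cx3cr1, the fractalkine receptor, had its PBS summit 9 bp upstream (8.9) in a peak of 712 bp, and the LPS summit lay 462 bp downstream (7.7). Csf2rb2, a receptor chain for IL-3, had them 80 bp upstream (8.67) and 20 bp downstream (7.62). Fcgr1, a high-affinity Fc receptor, had a PBS summit 67 bp upstream (6.33) and a weak LPS peak with its summit 756 bp upstream (2.61), and Ctsz, a lysosomal protease, had them 29 bp (7.23) and 1117 bp upstream (4.59). Slc11a1, a metal transporter of the phagosome, had an LPS summit 7 bp upstream (5.15), and the PBS summit lay 1666 bp upstream (9.44). Mitf, a transcription factor of the myeloid and melanocyte lineages, had an LPS summit 51 bp upstream (7.75), and the PBS summit lay 1200 bp upstream (5). Chemokine and interleukin genes gave 4 of 68 LPS members, Ccl6, Ccl12, Cxcl1 and Il18, and 1 PBS member, Ccl22.

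The labelled cell type was checked against its markers. Of 12 macrophage markers 12 had an LPS H3K4me1 peak within 10 kb of the start and 10 a PBS one, with Cd68 and Mertk lacking one in the PBS list. Of 4 markers each, T cell genes had 2 and 0, B cell genes 3 and 2, neutrophil genes 2 and 2, and fibroblast and epithelial genes 1 and 1. The share of all genes with such a peak is not given here, so these counts cannot tell whether any marker group stands out. The part of other cell types in the results above was not tested. The depth recovered from the values was 7.00e+06 fragments for the LPS H3K4me1 library and 6.87e+06 for the PBS one.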

How the data were processed

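CUT&RUN libraries of BMDMs were grouped by their labels, with 1 library per treatment (LPS, or PBS for 1 h) and antibody. According to the methods and submitters' processing notes, the authors aligned paired-end reads to GRCm38 with Bowtie2 2.4.4, excluded blacklisted regions and called peaks per library with MACS2 2.2.7.1 within an nf-core pipeline. Each deposited list gives a peak's position, its summit, a score (a whole number, not used), the fold enrichment, a ratio to the local background, and the −log10 of the p-value and of the q-value, all computed by the authors' peak caller. There are 4 such lists, and no values of the 2 IgG libraries were used here.

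Gene starts were taken from GENCODE release M21 on GRCm38, another release than the methods name, so that members could differ where a start moved, and sequence from RefSeq's GRCm38.p6, whose build is that of the lists. Summits on chromosomes 1 to 19 were assigned to the nearest protein-coding start. Shares have 95% Wilson intervals from statsmodels, with pandas 2.3.3, numpy 2.4.6, pysam 0.24.0 and Python 3.11.15, and scipy 1.17.1 was used to recover the depth. Depth is not given in the lists and was recovered from fold enrichment and p together. One scale per library returned the deposited p, within 0.002 on the −log10 scale, for 100.000% of LPS and 99.997% of PBS H3K4me1 peaks, and the step was tested on simulated data. At 17 fragments per summit at the median over all peaks, single summits are imprecise.

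Genes were named by a rule, namely the 10 members with the highest −log10 q per list, the 5 strongest without a peak of the other list within 1000 bp, the 5 strongest in both lists, every member of the response and identity lists, and the summits at the limits of the window. Some genes that the rule named are not reported here. The members and gene lists were chosen with earlier results of these data known. Alternatives changed the starts used, the window, the limit on −log10 q, list size, overlap and the definitions of promoter class, neighbour and H3K27ac.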

Additional observations from a re-analysis of the deposited data

Results flagged for a closer look

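Chromosome X was outside the rule that chose the members, and its signal was looked at separately. The LPS H3K4me1 list held 12 summits 1 to 100 bp upstream of a protein-coding start on chromosome X, and the PBS list held 8. Of the 948 protein-coding genes of that chromosome these were 1.27% and 0.844%, beside 4.47% and 3.01% on chromosomes 1 to 19. The lists held 1383 and 1111 H3K4me1 peaks of any position on chromosome X, for 948 genes. Chromosomes 1 to 19 held 71661 and 63640, for 20807 genes, so peaks of any position were also fewer per gene on chromosome X. The part of this, and of the male sex of the mice, in the lower shares was not tested. The strongest summits in the window were at Atp6ap1, a subunit of the vacuolar proton pump, in the LPS list (−log10 q of 10.6) and at Car5b, a mitochondrial carbonic anhydrase, in the PBS list (7.73). Rpl36a, a ribosomal protein gene, was in both. These counts drew attention because they lie in data that no comparison above used.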

How the results depend on the processing

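Of 42 values under alternative settings 15 stayed close to those reported, 27 moved by more than their counting interval or by more than 1.5 times, and 0 were classed as reversed. This class did not count a change of side against the share over all genes, of which a case is given below. A window of 1 to 50 bp held 441 LPS and 307 PBS summits, and one of 1 to 200 bp held 1566 and 1009, with 24.5% and 38.1% of the genes then in both lists. Keeping peaks with a −log10 q of at least 5 left 564 LPS and 344 PBS members, with 12.8% and 20.9% in both lists, 25.7% and 45.3% overlapped by the other list, and 3.37% and 1.16% with an LPS H3K27ac peak of the same strength (1.97% of all genes, so that the PBS share went from above all genes to below). With lists of equal size the overlapped share of PBS members was 51.3%. Asking for 50% of both peaks gave 21.5% and 33.4%. High-CpG shares were 53.1% and 44.9% with transcript starts (32.8% of all such starts), 43.9% and 39.3% over 1000 bp (25.7% of all genes), and 77.7% and 74.1% with limits of 0.6 and 50% (48.8% of all genes), so that they stayed above those of all genes in each case. Counting neighbours of any biotype gave 15.4% and 15.2% (11.1% of all genes), and H3K27ac within 500 bp gave 5.27% and 4.63% (3.96%). No paired analysis was possible because each treatment and antibody had a single library.

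Depth limits single genes more than groups, since a member rested on 18 fragments at the median and a shift of its summit by a few bases can move it across the limit of the window.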
